A study of Homo sapiens with 3 samples.

Results

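The SMN duplication region of chromosome 5q13 was described here as all p53 ChIP-seq peaks with a summit in chr5:68000001-71000000 (hg19), a window of 3 Mb. It held 438 of the 35740 peaks listed in the series. Of these, 158 came from the library with the first ERG shRNA, 0 from the library with ERG shRNA 2, and 280 from the control library with luciferase shRNA. The window was chosen because earlier results on the same lists showed many peaks in it, so the number of peaks is a description of the choice and not a finding.

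All 3 libraries came from VCaP cells, an established prostate cancer line grown from a human metastasis. The labels' design text gives an endogenous R248W mutation of p53 to these cells, so control and knockdown libraries alike carried the mutant protein. ChIP-seq sequences the DNA that is recovered with an antibody, here DO-1 against p53 for ERG shRNA and control, while the label of ERG shRNA 2 names none. Each group was 1 library made from several pooled immunoprecipitations, so there was no replicate error and no test of a difference, and intervals given below cover counting error only. The header of the ERG shRNA 2 list names another input than the other 2 headers, with the same total, and carries another date-like tag, so hairpin and batch cannot be told apart for that library. How far ERG was depleted was not analysed here.

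p53 is a tumour suppressor that binds DNA as a tetramer, and R248W changes a residue that contacts DNA. ERG belongs to the ETS family of transcription factors, which share a domain that recognises a GGAA core, and it is overexpressed in many prostate cancers through fusion to an androgen-driven promoter. Segmental duplications are stretches of genome present in several nearly identical copies. Short reads from them can align equally well to more than one copy. The 5q13 duplication is known for SMN1 and SMN2, which encode the survival motor neuron protein that helps to assemble spliceosomal ribonucleoproteins, and SMN1 loss causes spinal muscular atrophy.

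In the RefSeq gene table of GRCh38.p14, 64 genes lay from MARVELD2 to BDP1, the genes on either side of the duplicated content, and 32 of them were pseudogenes. They fell into families. SMN1 and SMN2 made 2, SERF1A and SERF1B, which encode a small factor that promotes protein aggregation, made 2, and GTF2H2, a TFIIH subunit of transcription and DNA repair, had 3 members with GTF2H2B and GTF2H2C. NAIP, an innate immune sensor of bacterial proteins, had 5 members including pseudogenes, and pseudogenes named GUSBP, after the lysosomal enzyme gene GUSB, numbered 7. The table is of another build than the peaks, so no peak was assigned to any of these genes.

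The 3 promoter sequences below show how alike the copies are and why a read may not say which copy it came from. They are the 250 bases before each start, from RefSeq, 5′ to 3′ on the gene's strand, with GGAA on either strand (written GGAA or TTCC) in capitals. Their positions are on GRCh38.p14 and cannot be set against the hg19 positions of the peaks.
SERF1A, chr5:70900419-70900668, plus strand: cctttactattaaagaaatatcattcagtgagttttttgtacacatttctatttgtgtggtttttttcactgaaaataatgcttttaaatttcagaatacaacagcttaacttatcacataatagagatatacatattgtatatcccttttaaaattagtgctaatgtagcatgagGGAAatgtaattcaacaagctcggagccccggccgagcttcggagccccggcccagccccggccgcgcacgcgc
GTF2H2, chr5:71067677-71067926, minus strand: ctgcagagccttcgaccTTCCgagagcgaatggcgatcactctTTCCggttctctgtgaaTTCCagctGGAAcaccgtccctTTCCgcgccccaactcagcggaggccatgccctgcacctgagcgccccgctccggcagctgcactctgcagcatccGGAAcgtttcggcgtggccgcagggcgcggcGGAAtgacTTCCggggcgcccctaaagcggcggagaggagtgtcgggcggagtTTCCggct
GTF2H2C, chr5:69559941-69560190, plus strand: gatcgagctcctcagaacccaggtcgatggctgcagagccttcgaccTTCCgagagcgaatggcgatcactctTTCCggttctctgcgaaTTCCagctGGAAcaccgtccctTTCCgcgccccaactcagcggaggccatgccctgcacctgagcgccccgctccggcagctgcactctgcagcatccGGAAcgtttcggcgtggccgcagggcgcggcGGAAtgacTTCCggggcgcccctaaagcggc

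The SERF1A and SERF1B windows of 300 bases were identical at 300 of 300 bases, and both genes are on the plus strand. GTF2H2 and GTF2H2C matched at 268 of 270 aligned bases (99.3%) after a shift of 30 bases, and lie on opposite strands. Counted from 1 at the 5′ end of the GTF2H2 sequence, the differences were T57C and G238T. The letters CCGGAAGT, which contain GGAA, were present once in GTF2H2 and once in GTF2H2C on either strand, and not in SERF1A. Of the 35116 promoters in the table, 3.42% held CCGGAAGT and 92.7% held GGAA. The consensus p53 half-site was in none of the printed windows and in 5.57% of all promoters. Sequences for SMN1, SMN2 and NAIP were looked for by symbol and are named only.

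Peaks sat in a few stretches of the region rather than along all of it. Of 30 bins of 100 kb, 19 held ERG shRNA peaks, 23 held control peaks, and 5 held neither. The densest bin, 70000001 to 70100000, was the same in both lists, with 25 ERG shRNA peaks, 0 ERG shRNA 2 peaks and 48 control peaks. Next came 69100001 to 69200000, with 19 ERG shRNA, 0 ERG shRNA 2 and 39 control peaks. The third, 70500001 to 70600000, held 14 ERG shRNA, 0 ERG shRNA 2 and 29 control peaks. In 18 bins the control list held more peaks than ERG shRNA, and in 6 bins it held fewer. Over the 30 bins the counts of ERG shRNA and control had a Pearson r of 0.94. That value is a description, since it includes the bins without peaks and both lists were called against an input of the same total.

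**Figure D1:**
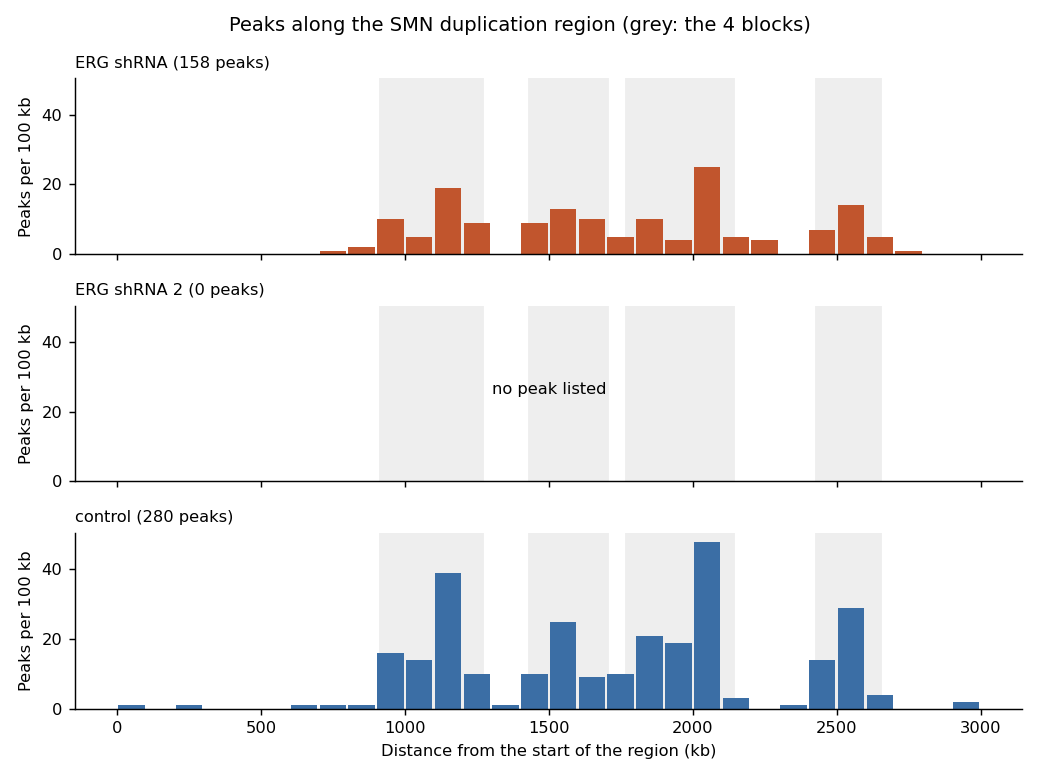
Peaks per 100 kb (vertical axis) against distance from the start of the region in kb (horizontal axis) in the ERG shRNA, ERG shRNA 2 and control lists, with the 4 blocks in grey. ERG shRNA reached 25 peaks and the control 48 in the same bin, and ERG shRNA 2 listed none.

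The peaks formed 4 blocks, bounded here by stretches of over 50 kb without a control peak. The blocks were drawn after the peaks were seen. They spanned 1233 kb, 41.1% of the window, and held 145 of 158 ERG shRNA peaks and 271 of 280 control peaks. Block 1, chr5:68914020-69271854, held 43 ERG shRNA and 79 control peaks. Block 2, chr5:69431148-69704642, held 32 ERG shRNA and 47 control peaks. Block 3, chr5:69769161-70144488, held 45 ERG shRNA and 98 control peaks. Block 4, chr5:70426810-70653206, held 25 ERG shRNA and 47 control peaks. Block 3 thus held the most peaks of both lists.

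Density in ERG shRNA was nearly even, between 11 and 12 peaks per 100 kb in the 4 blocks. In the control it ran from 17.2 in block 2 to 26.1 in block 3. ERG shRNA peaks numbered 0.544, 0.681, 0.459 and 0.532 times the control peaks in blocks 1 to 4. The blocks were drawn on control peaks alone, so these ratios are a description. Outside the blocks the window held 13 ERG shRNA and 9 control peaks, the other direction. Between the blocks lay 3 nearly empty stretches of 159, 64.5 and 282 kb. The first held 2 ERG shRNA peaks and 1 control peak, the next held no peak of any list, and the longest, from 70144489 to 70426809, held 6 ERG shRNA peaks and 1 control peak.

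The window made up 0.912% of the ERG shRNA list (95% Clopper-Pearson interval 0.776 to 1.07) and 1.56% of the control list (1.38 to 1.75). The ratio of ERG shRNA to control peaks was 0.564 in the region and 0.963 over the whole lists. On the rest of chromosome 5 it was 0.947, with 1163 ERG shRNA and 1228 control peaks. Around the centromere of chromosome 9, another duplicated stretch (chr9:38000001-71000000), it was 0.758, with 623 ERG shRNA and 822 control peaks, and in the chromosome 1 duplications (chr1:142000001-150000000) 0.881, with 260 ERG shRNA and 295 control peaks. The ERG shRNA library held 4853617 tags, 0.524 times the control's 9258451, and the part of depth in these ratios was not tested. In ERG shRNA 2, with 52175068 tags but a list of only 433 peaks, 0 of 433 has a Clopper-Pearson upper limit of 0.848%. The simpler limit of 3 counts is 0.693%. The 4 peaks of ERG shRNA 2 on chromosome 5 all lay outside the window, and the nearest, chr5:71055820-71055978 with a pileup of 10.2, had its summit 55.9 kb beyond its end. A control peak of pileup 12 and fold 8.62 covered the same place.

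The ends of the window cut through sparse sequence. In ERG shRNA the first member lay 776 kb inside the lower bound, with a pileup of 5, and the last peak outside it 141 kb away, with a pileup of 4. In the control the first member lay 13.4 kb inside, with a pileup of 6, and the last peak outside 32.0 kb away, with a pileup of 7. At the upper bound, the last ERG shRNA member lay 297 kb inside and the next peak 5.59 kb outside, with pileups of 4 and 3. The last control member lay 45.5 kb inside, with a pileup of 6, and the next peak 55.9 kb outside, with a pileup of 12.

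Neighbouring peaks were close together. The median distance between neighbouring summits was 7.41 kb in ERG shRNA (quartiles 2312 and 12202 bp) and 2.24 kb in the control (919.5 and 6697 bp). On the rest of chromosome 5 it was 82.5 kb in ERG shRNA and 66.4 kb in the control. Of the distances inside the window, 17 of 157 in ERG shRNA (10.8%) and 77 of 279 in the control (27.6%) were under 1000 bp. With such peaks merged, the region held 140 ERG shRNA peaks and 183 control peaks, which lie closer together than the 158 and 280 listed. The ratio of 0.564 given above is for unmerged peaks, and merged counts were not made for the other sets.

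Most members were small peaks, like most peaks of their lists. The pileup, the number of extended tags over the summit as the authors' peak caller gave it, had a median of 5 in ERG shRNA (range 3 to 10) and 6 in the control (4 to 17), and the rest of each list had the same medians. The fold enrichment, pileup over local background with 1 added to each, had a median of 4.18 in ERG shRNA and 4.54 in the control, against 4.18 and 4.37 in the rest of each list. Its highest values in the region were 8.03 in ERG shRNA and 9.29 in the control. Outside the region the lists reached folds of 191 in ERG shRNA and 28.5 in the control. The median width of ERG shRNA members was 118 bp, against 115 bp in the rest of that list, and that of control members 193 bp, against 162 bp. Around the centromere of chromosome 9 the medians were 121 bp in ERG shRNA and 180.5 bp in the control. In the chromosome 1 duplications they were 119.5 and 180 bp.

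A larger share of members than of other peaks had the lowest background the caller allows. The background under each peak, recovered from its pileup and fold, was at the caller's genome-wide minimum (within 2%) for 86 of 158 ERG shRNA members (54.4%) and 147 of 280 control members (52.5%). In the rest of each list the shares were 34.7% in ERG shRNA and 33.2% in the control, and in the chromosome 1 duplications 10.8% and 23.4%. A high background was also listed for a larger share of members than of other peaks, by a small margin in the control. It exceeded 2 times the minimum at 25 ERG shRNA members (15.8%) and 35 control members (12.5%), against 10.0% and 10.5% in the rest. In the chromosome 1 duplications the shares were 24.2% and 15.6%, and around the centromere of chromosome 9 13.8% and 11.6%. A high background was thus not particular to the region. The part of a low background in the number of peaks was not tested.

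The share of members with a q of at most 0.05 was close to that of all peaks. It was 74.1% in ERG shRNA (117 of 158, interval 66.5 to 80.7), where the whole list had 72.6%, and 84.6% in the control (237 of 280, 79.9 to 88.7), where the whole list had 79.8%. ERG shRNA 2 had no member, and 8.31% of its list reached that q. At a −log10 q of at least 5, called strong below, ERG shRNA had 8 members and the control 16. Those counts are 5.06% of ERG shRNA members beside 5.99% of its list, and 5.71% of control members beside 6.65% of its list. Blocks 1 to 4 held 4, 2, 2 and 0 of the strong ERG shRNA members, and 6, 1, 8 and 1 of the strong control members.

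**Figure D2:**
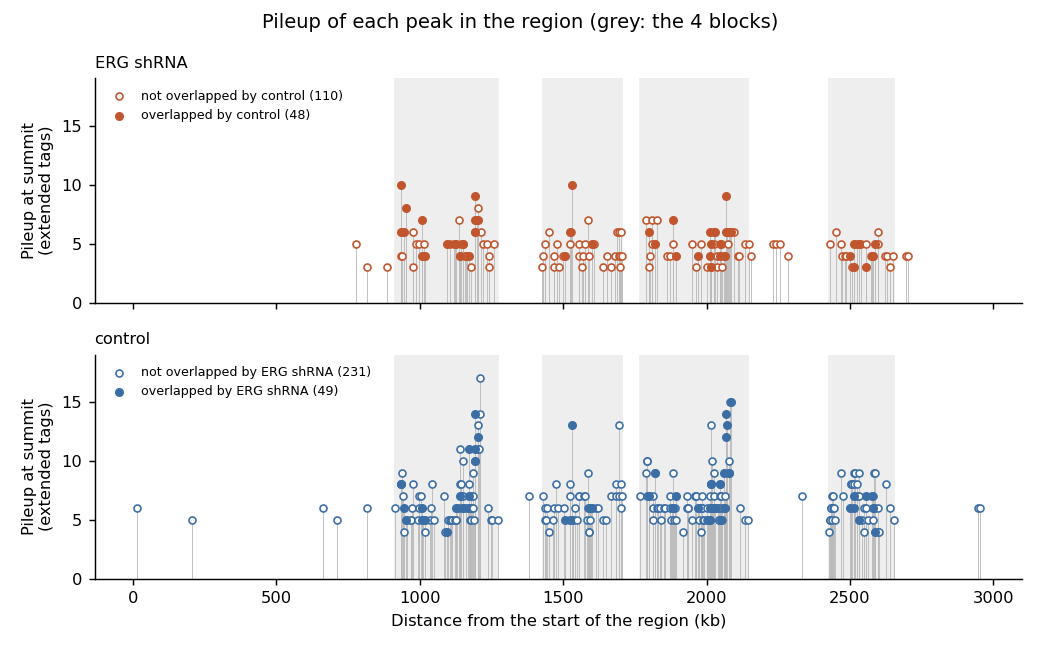
Pileup at the summit in extended tags (vertical axis) of each ERG shRNA and control peak against distance from the start of the region in kb (horizontal axis), with filled points for peaks overlapped by the other list. ERG shRNA members reached a pileup of 10 and control members 17, and the tallest control peaks stood near the ends of blocks 1 and 3.

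The 5 ERG shRNA members of highest pileup all had a control counterpart. Of the 20 of highest pileup 10 had one, and of all 158 members 48. The tallest, chr5:68933442-68933592 in block 1, had a pileup of 10 and a fold of 8.03 in ERG shRNA, no peak in ERG shRNA 2, and a pileup of 8 and a fold of 3.93 in the control. At chr5:69531231-69531383 in block 2, ERG shRNA had 10 tags and a fold of 6.56, ERG shRNA 2 no peak, and the control 13 tags and a fold of 3.91. At both places the fold was higher in the ERG shRNA list, but folds of different lists are on different scales, since the genome-wide background was 0.207 tags in ERG shRNA and 0.507 in the control.

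In block 3, chr5:70069130-70069266 had a pileup of 9 and a fold of 6.91 in ERG shRNA, no peak in ERG shRNA 2, and lay within a control peak, chr5:70068697-70069595, of pileup 14 and fold 7.15. This was the single place where a strong ERG shRNA member overlapped a strong control member, and their summits were 38 bp apart. The last of the 5 were chr5:69193230-69193383, with a pileup of 9 in ERG shRNA and 11 in the control, and chr5:68951461-68951612, with 8 in ERG shRNA and 5 in the control.

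Among the 5 control members of highest pileup, 3 had no ERG shRNA counterpart. Of the 20 of highest pileup 9 had one, against 10 of 20 in ERG shRNA, so the 2 lists differed little there. Of all 280 control members 49 had one. The tallest member of the region, chr5:69210069-69210618 in block 1, was listed in neither ERG shRNA nor ERG shRNA 2 and had a pileup of 17 and a fold of 6.62 in the control. Its neighbour chr5:69210703-69211429 was likewise listed only in the control, with 14 tags and a fold of 4.19. In block 3, chr5:70080312-70080538, with 15 tags and a fold of 6.96, was also unlisted in both ERG shRNA libraries. At chr5:70085161-70085938 ERG shRNA had a peak of 6 tags and the control one of 15. The remaining peak was the strong shared one of block 3. The backgrounds under these 5 control peaks were 2.16 to 5.08 times the genome-wide minimum.

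The control members of highest fold stood on minimal background instead. At chr5:69696233-69696668 in block 2 and at chr5:70014229-70015184 in block 3, the control had a pileup of 13 and a fold of 9.29. Neither ERG shRNA library listed an overlapping peak. On either side of the block 3 peak, however, ERG shRNA listed chr5:70013269-70013767 and chr5:70015858-70016158. The next, chr5:69139723-69140054 in block 1, had a control pileup of 11 and a fold of 7.96 and no overlapping ERG shRNA peak. ERG shRNA listed chr5:69139008-69139122 nearby. Tied with chr5:69139723-69140054, chr5:69171305-69171542 in block 1 had the same control pileup and fold and was overlapped by an ERG shRNA peak of 4 tags and a fold of 4.14. These 4 control members were chosen after their values were seen.

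Control and ERG shRNA shared part of their members. A control peak overlapped 48 of 158 ERG shRNA members by at least 1 bp (30.4%, 23.3 to 38.2), where 14.0% of all ERG shRNA peaks were overlapped. In the other direction an ERG shRNA peak overlapped 49 of 280 control members (17.5%, 13.2 to 22.5), where 13.5% of all control peaks were. On the rest of chromosome 5 the shares were 12.1% and 11.4%, around the centromere of chromosome 9 they were 15.6% and 11.7%, and in the chromosome 1 duplications 14.2% and 13.6%. Peaks were far denser in the window than elsewhere on chromosome 5, and control members covered 3.83% to 6.75% of each block, and the part of this density in the shares was not tested. No member overlapped a peak of ERG shRNA 2, where 0.306% of ERG shRNA peaks and 0.284% of control peaks did over the whole lists. No place in the window was listed in all 3 libraries.

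Shared members lay mostly in blocks 1 and 3. In ERG shRNA 16 of 43 members of block 1 (37.2%) and 20 of 45 of block 3 (44.4%) were overlapped, against 4 of 32 in block 2 (12.5%, 3.51 to 29.0) and 8 of 25 in block 4 (32.0%, 15.0 to 53.5). In the control, 17 of 79 members of block 1 (21.5%), 4 of 47 of block 2 (8.51%), 20 of 98 of block 3 (20.4%) and 8 of 47 of block 4 (17.0%) were. In the control the intervals of all 4 blocks overlapped one another. In ERG shRNA all did except those of blocks 2 and 3, the latter running from 29.6 to 60.0. Peaks of 1 library in copies of the same sequence are not independent, and the blocks were drawn after the peaks were seen. The intervals are therefore no test of a difference between blocks.

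Overlapping peaks often had separate summits. In the 49 overlapping pairs the summits were a median of 92 bp apart and at most 454 bp, and 16 pairs had summits within 50 bp. The median pileup in these pairs was 5 in ERG shRNA and 7 in the control. Within the ERG shRNA list, overlapped members had a median fold of 4.55 and the others 4.14, and 85.4% of the overlapped and 69.1% of the others passed a q of 0.05. Within the control list overlapped and other members were nearly alike, with median folds of 4.51 and 4.58 and q shares of 85.7% and 84.4%.

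Strong control members were less often overlapped than strong control peaks of the rest of the list, by these counts. Of the 16, 4 were overlapped by an ERG shRNA peak (25%, 7.27 to 52.4), against 707 of 1180 in the rest of the control list (59.9%, 57.1 to 62.7). Of the 8 strong ERG shRNA members, 6 were overlapped by a control peak (75%, 34.9 to 96.8), against 629 of 1029 in the rest of the ERG shRNA list (61.1%, 58.1 to 64.1). Around the centromere of chromosome 9, 13 of 35 strong control peaks were overlapped (37.1%, 21.5 to 55.1), and in the chromosome 1 duplications 2 of 7 (28.6%, 3.67 to 71). The 3 intervals of duplicated sequence for strong control peaks overlap one another, and no test of the difference was possible with 1 library per group. The strong peaks were not matched in strength either. In the control, members reached a −log10 q of 10.1 and a pileup of 17, and the rest of the list 56.2 and 176. In ERG shRNA, members reached 7.51 and 10, and the rest of the list 596 and 230. The part of strength in these shares was not tested.

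**Figure D3:**
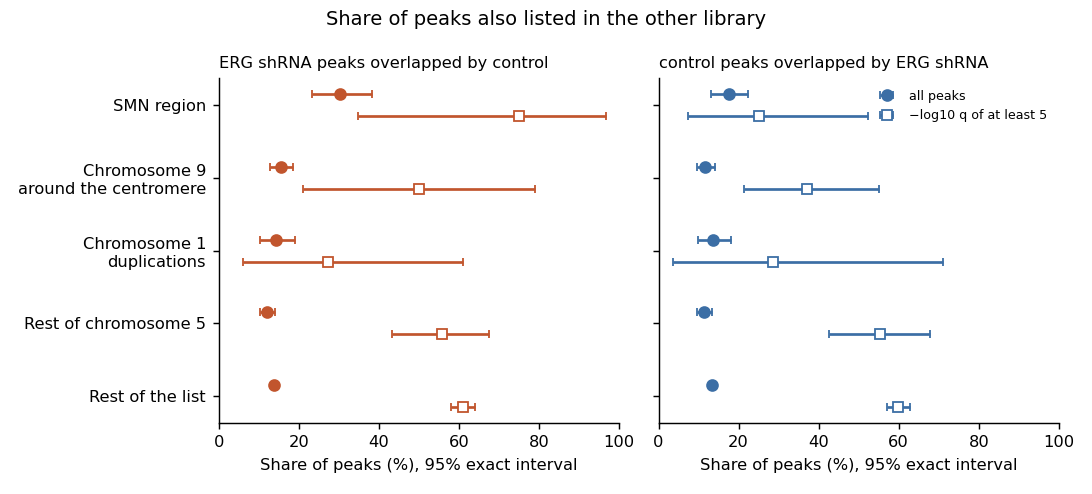
Share of ERG shRNA peaks overlapped by control peaks (left) and of control peaks overlapped by ERG shRNA peaks (right), in percent with 95% exact intervals, for the region and 4 other sets of peaks. Circles are all peaks and squares those with a −log10 q of at least 5. In the region the squares stand at 75% (left) and 25% (right).

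The symmetry of the duplicated copies was read from distances between summits. Direct copies put pairs of peaks at 1 distance, and every pair of control members over 100 kb apart was used to find it. The leading distance in the control list was 875.929 kb, with 21 pairs within 100 bp of it, where the surrounding 20 kb on either side gave a mean of 7.15 pairs per window of that size. At the same distance ERG shRNA had 7 pairs against a surrounding mean of 2.02. Pairs with the first peak in ERG shRNA and the second in the control numbered 8 (surrounding mean 4.03), and with the libraries swapped 4 (3.58), which was close to the surroundings.

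The preferred distance was not a single value. In bins of 500 bp over 25 kb of distances around it, the 3 adjacent bins with the most control pairs spanned 874.5 to 876 kb. They held 8, 13 and 13 pairs of ERG shRNA peaks, where the 47 other bins had a median of 5 and at most 10. The control, which chose the band, had 31, 31 and 29 pairs in it, with a median of 18 and at most 28 in the other bins. Between lists the excess was smaller. Pairs with ERG shRNA first and control second numbered 12, 15 and 17 there, with a median of 10 and at most 17 elsewhere, and with control first and ERG shRNA second 11, 19 and 12, with a median of 9 and at most 17.

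**Figure D4:**
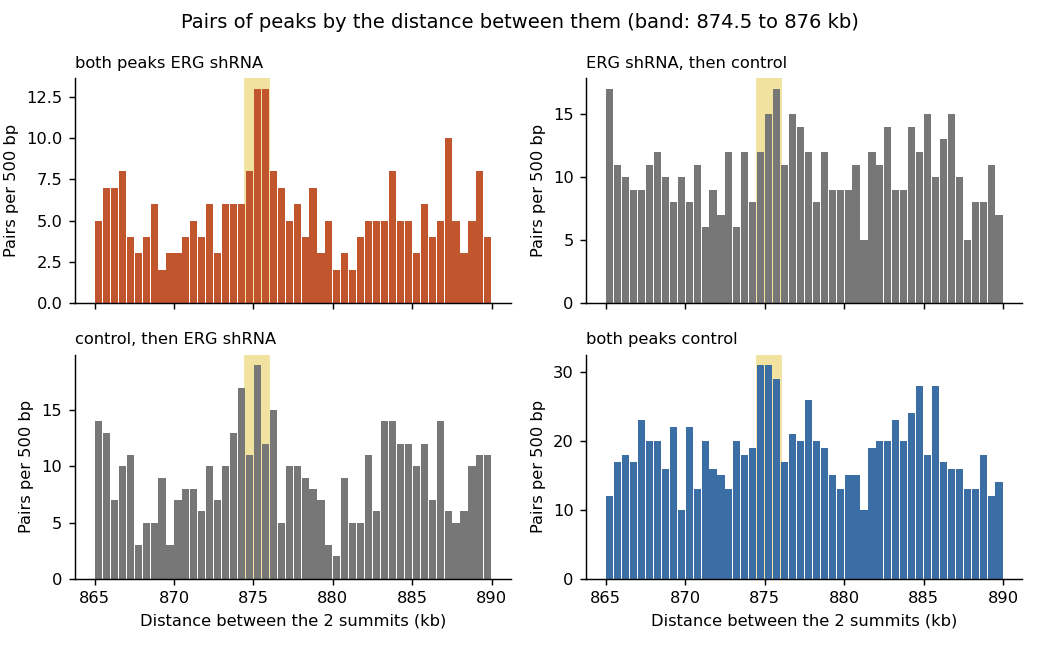
Pairs of peaks per 500 bp (vertical axis) against the distance between their summits in kb (horizontal axis), for pairs within ERG shRNA, pairs between the libraries in either order, and pairs within the control. The shaded band from 874.5 to 876 kb holds up to 13 ERG shRNA pairs and up to 31 control pairs per bin.

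Most pairs in that band joined block 1 to block 3. Of 34 ERG shRNA pairs 29 did so and 2 joined block 2 to block 4, and of 91 control pairs 79 and 9 did. Block 1 moved by the leading distance, to chr5:69789949-70147783, falls almost wholly on block 3. The joining of these blocks therefore follows from where they lie and is a description. Pairs at other distances were not counted by block. Some peaks entered more than 1 pair. The 34 ERG shRNA pairs used 30 first and 29 second peaks, and the 91 control pairs used 64 and 68. Partners had similar pileups, within 1 tag in 26 of 34 ERG shRNA pairs (76.5%) and in 48 of 91 control pairs (52.7%), and differed by at most 5 tags in both lists. The pileups of all members vary little, with quartiles of 4 and 5.75 tags in ERG shRNA and 5 and 7 in the control, so this closeness is a description.

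The tallest ERG shRNA pair joined chr5:69193230-69193383 and chr5:70069130-70069266, 875.921 kb apart, with 9 tags at each. It holds the strong shared place of block 3 and its counterpart in block 1, which the control also listed with 11 tags in block 1 and 14 in block 3. The next joined chr5:69008291-69008760 and chr5:69883576-69883778, with 7 tags at each and the same fold of 6.63. A further pair joined chr5:69138148-69138602, with 7 tags, and chr5:70013269-70013767, with 6.

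The tallest control pair joined the tallest member of the region, chr5:69210069-69210618 with 17 tags, to chr5:70085161-70085938 with 15, 875.186 kb apart. ERG shRNA listed a peak at the second of these places, with 6 tags, and none at the first. Another joined chr5:69204624-69204996, with 13 tags, to chr5:70080312-70080538, with 15. A further one joined chr5:69139723-69140054, with 11 tags and a fold of 7.96, to chr5:70014229-70015184, with 13 tags and a fold of 9.29. The control list set this distance, so its tall pairs are a description.

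Both stretches had their highest counts at the same distance from their starts in ERG shRNA. The stretch of block 1 held 43 ERG shRNA peaks and the stretch 875.929 kb further on, chr5:69789949-70147783, held 45. In the control they held 79 and 96. ERG shRNA reached 6 peaks in the first stretch and 8 in the second in the 20 kb that begin 220 kb from each start. The control reached 10 and 17 there, and 15 and 12 in the 20 kb that begin at 260 kb. Over the 18 bins of 20 kb the Pearson r between the stretches was 0.76 in ERG shRNA and 0.79 in the control. Between the libraries it was 0.69 in the first stretch and 0.79 in the second, and 0.71 and 0.62 across stretches. Bins of a list share its depth and the copies share their sequence, so these are descriptions.

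**Figure D5:**
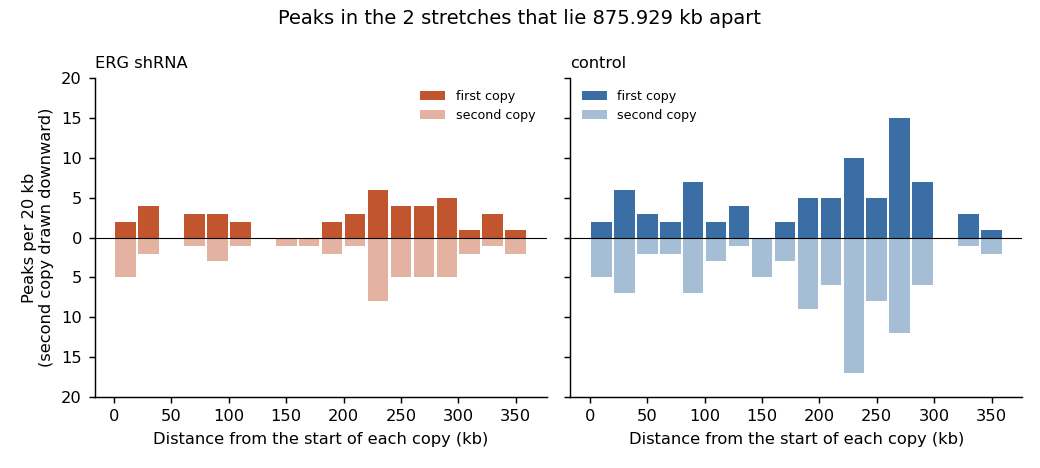
Peaks per 20 kb in the first stretch (first copy, upward) and in the stretch 875.929 kb further on (second copy, downward) against distance from the start of each stretch in kb, for ERG shRNA (left) and control (right). The highest bins of both libraries lie between 220 and 280 kb in both stretches, with up to 8 ERG shRNA and 17 control peaks.

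For single peaks, partners in the other copy were counted at the leading distance. Pairs were spread over the band from 874.5 to 876 kb, so shares at 1 distance do not measure how symmetric the copies are. Of the members, 14 of 158 in ERG shRNA (8.86%, 4.93 to 14.4) and 42 of 280 in the control (15.0%, 11.0 to 19.7) had a partner of the same list within 100 bp of the place the leading distance gives. For 26 ERG shRNA members a control summit lay within 100 bp at the same place, and for 12 one lay within 100 bp at the place in the other copy, 4 of them being the same members. Of the 12 strong control members without an overlap, 6 had an ERG shRNA summit within 1000 bp of their place in the other copy. Among all control members without an overlap it was 59 of 231 (25.5%), and among those of blocks 1 and 3 it was 45 of 140 (32.1%). Of the strong members, 5 of 8 in ERG shRNA and 12 of 16 in the control had a summit of their own list within 1000 bp there. So did 62 of all 158 ERG shRNA members (39.2%) and 130 of all 280 control members (46.4%), and in blocks 1 and 3 48 of 88 (54.5%) and 111 of 177 (62.7%). Windows of 1000 bp were counted at the leading distance only, and the matches at other distances were not counted. The strong members' counts are therefore a description and are not read as a sign of symmetry. The sources used here do not say how reads that fit several copies were placed, and its part in the symmetry was not tested.

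Other distances also had more pairs than their surroundings in both lists, so 875.929 kb was not alone. Among the next leading control distances were 703.936 kb, with 16 pairs (surrounding mean 4.26), and 428.016 kb, with 19 (7.76). ERG shRNA had 7 pairs (1.34) at 703.936 kb, a larger excess over its surroundings than at 875.929 kb, and 1 (2.27) at 428.016 kb. At the remaining 2 leading control distances, 108.101 and 154.362 kb, ERG shRNA had 3 pairs (1.47) and 1 pair (1.82). The leading ERG shRNA distance was 579.736 kb, with 13 pairs (2.17), where the control had 11 (6.08). At 1000.256 kb ERG shRNA had 10 pairs (1.28) and the control 9 (4.30), and at 1580.037 kb ERG shRNA had 8 (0.445) and the control 4 (1.35). At the remaining 2 leading ERG shRNA distances, 493.843 and 129.636 kb, the control had 14 pairs (7.88) and 6 pairs (6.56). Since each leading distance was picked as the highest of many, its own count is no evidence. The count in the other list did not choose the distance, but it is not independent of that choice. A control peak overlapped 48 of 158 ERG shRNA members, and some pairs of both lists join the same places. Both peaks of the tallest ERG shRNA pair, for example, overlapped control peaks that are themselves a pair near 875.929 kb. The part of shared places in these counts was not tested.

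Mirrored copies would put pairs around 1 axis. The leading axis of the control, at 69810010, had 15 control pairs within 100 bp of the same sum (surrounding mean 5.09) and 1 ERG shRNA pair (1.37). Of the next 4 control axes, those at 69800913 and 69778112 had 5 ERG shRNA pairs each (1.34 and 1.26), an excess similar to that at the direct distance, and the others had 2 each (1.28 and 0.925). The leading axis of ERG shRNA, at 69501451, had 8 ERG shRNA pairs (1.25) and 7 control pairs (4.61). The axis second in ERG shRNA, at 69511059, had 8 ERG shRNA pairs (1.26) and 12 control pairs (4.55). The other 3 leading ERG shRNA axes had 5 to 7 control pairs, with surrounding means of 3.06 to 3.63. Excesses in both lists were thus found at some direct distances and at some mirrored axes.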

How the data were processed

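p53 ChIP-seq peak lists of 3 VCaP libraries were analysed, 1 library for each of ERG shRNA, ERG shRNA 2 and control. The build was hg19, and the tools named are bedtools, Bowtie2 and Picard 2.14.0, per the submitters' processing notes. Per the file headers, the authors called narrow peaks with MACS 2.2.7.1 against an input of 14360465 tags, at a p of 0.001 and with 1 tag kept per position, and the larger of library and input was scaled to the smaller. The deposited pileup is the signal of extended tags at the summit. The fold enrichment, as deposited, divides the pileup by the local background after adding 1 to both. The deposited −log10 p and −log10 q had damaged column names and were read by the caller's column order. Tags numbered 4853617 in ERG shRNA, 52175068 in ERG shRNA 2 and 9258451 in the control, which limits what each list can hold.

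Members were peaks with a summit in the window. Members and lists were chosen with earlier results of these data known. Shares carry 95% Clopper-Pearson intervals, which cover counting error only. Where a count was 0, the limit is 3 counts of the total. With 1 library per group no test was made. Named peaks were the 5 of highest pileup per list and up to 6 leading pairs at the copy distance, by the smaller pileup, and the exceptions are stated beside them. Distances and sums of summits were counted with Python 3.11.15, numpy 2.4.6 and pandas 2.3.3, intervals with scipy 1.17.1, and the pair counting was tested on simulated data. Promoters and gene names came from RefSeq tables of GRCh38.p14, in which 4 of the 7 family members looked for had a promoter. Alternatives to the cutoff, the overlap rule, the summit tolerance and the bins are given in the closing section.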

Additional observations from a re-analysis of the deposited data

How the results depend on the processing

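Of 48 alternative values, 25 stayed within 1.5 times the reported count or within the 95% interval of the reported share or median, and 23 moved further. With a fold of at least 5, 27 ERG shRNA and 65 control peaks remained, and merging peaks within 1000 bp left 183 control peaks. Overlap of ERG shRNA members by the control was 12.7% at a reciprocal overlap of 50 percent, 62.0% for peaks within 1000 bp and 16.5% for summits within 100 bp. Overlap of control members by ERG shRNA was 7.14%, 46.4% and 9.29% under the same rules. Members with a partner in the other copy made up 3.8% at 50 bp and 21.5% at 500 bp in ERG shRNA, and 10% and 27.9% in the control. At 1000 bp, a tolerance added after seeing the data, they made up 39.2% in ERG shRNA and 46.4% in the control. At a q of at most 0.05 the ERG shRNA share was 5.13%, against the reported 8.86%, whose interval is wide. In the band from 874.5 to 876 kb, an alternative chosen after seeing the data, the shares were 37.3% in ERG shRNA and 46.4% in the control. For control members a partner in the ERG shRNA list was found for 4.29%. The median fold was 4.77 in ERG shRNA at a q of at most 0.05, and pileup over background without the added 1 had a median of 18.6 in ERG shRNA and 9.85 in the control. The densest bin of 50 kb held 14 ERG shRNA and 30 control peaks. In each alternative count of peaks ERG shRNA had fewer than the control. No paired analysis was possible because no group had more than 1 library. Pileups of 3 to 17 tags limit how finely single members can be compared.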

Other observations

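The 6 bins of 100 kb with more ERG shRNA than control peaks differed by few peaks. The widest was the bin from 70200001, with 4 ERG shRNA peaks and 0 control peaks, followed by the bin from 70100001, with 5 ERG shRNA and 3 control peaks. The 2 highest control folds of the region were equal, 9.29 at chr5:69696233-69696668 and at chr5:70014229-70015184, and they lay in blocks 2 and 3, which the leading copy distance does not join.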
